A study of Homo sapiens with 24 samples.

Results

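The response of BRM-depleted SW-13 cells to IFNγ was read from 6 of the 24 arrays of the experiment. The 3 arrays labelled siCtrl siBRM with IFNγ were compared with the 3 arrays labelled siCtrl siBRM without it, over all 47231 probes. SW-13 cells come from a human carcinoma of the adrenal cortex and lack BRG1, as the study describes it. Cells of both groups received 50 nM of a control siRNA (siCtrl) together with 75 nM of an siRNA against BRM (siBRM). One group was left untreated, and the other was exposed to human IFNγ at 0.1 mg/ml for 6 hours. The rest of the experiment comprised siCtrl alone, siSUZ12 alone and siSUZ12 with siBRM, each with and without IFNγ, with 3 arrays per group. The study depleted BRM to ask whether this protein accounts for IFNγ responses seen after loss of SUZ12, a core subunit of the repressor complex PRC2.

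IFNγ acts through a receptor at the cell surface and switches on IFN-stimulated genes (ISGs), which serve antigen presentation and defence against infection. An early one of these is the transcription factor IRF1, which in turn acts at further ISGs. BRM (SMARCA2) and BRG1 (SMARCA4) are alternative ATPases of SWI/SNF, a complex that remodels nucleosomes and is known to act at ISG promoters. Cells with neither ATPase therefore lack the catalytic subunit of SWI/SNF.

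The probe IDs could not be matched to gene names, since 0 of them occurred in the gene tables used here. Results are therefore given for probes, and the ISGs behind them are not named. For the same reason the depletion of BRM and the identity of the line were not read from the arrays. A probe's brightness, in arbitrary units, follows the abundance of its mRNA, and arrays were brought to a common mean signal. The mean signal before scaling ran from 557 to 635 units over the 6 arrays, and between 15223 and 16269 probes per array were detected (detection p-value below 0.01). On the log2 scale, the correlation between replicates was 0.994 to 0.995, and that between untreated and IFNγ arrays 0.992 to 0.993. For all 24 arrays the closest other array came from the same group.

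IFNγ raised far more probes than it lowered. In siCtrl + siBRM cells, 75 probes rose ≥ 2-fold with an adjusted p-value under 0.05, or 0.159% of all probes, and 1 probe fell ≥ 2-fold, or 0.00212% (limma, Benjamini-Hochberg adjustment over all probes). The median log2 fold change of the 75 probes was 1.56, a 2.94-fold rise, and the quartiles were 1.20 and 2.21. The median over all probes was 0.01. Their median signal was 293 units in untreated cells and 1003 units with IFNγ. Of the 75 probes, 51 rose between 2-fold and 4-fold, 24 rose ≥ 4-fold, and 7 of these rose ≥ 8-fold. At all 75 the 3 IFNγ arrays lay above the 3 untreated arrays, which was true of 7.39% of all probes. The 75 were picked on these same arrays, so this comparison describes them and does not test them.

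**Figure D1:**
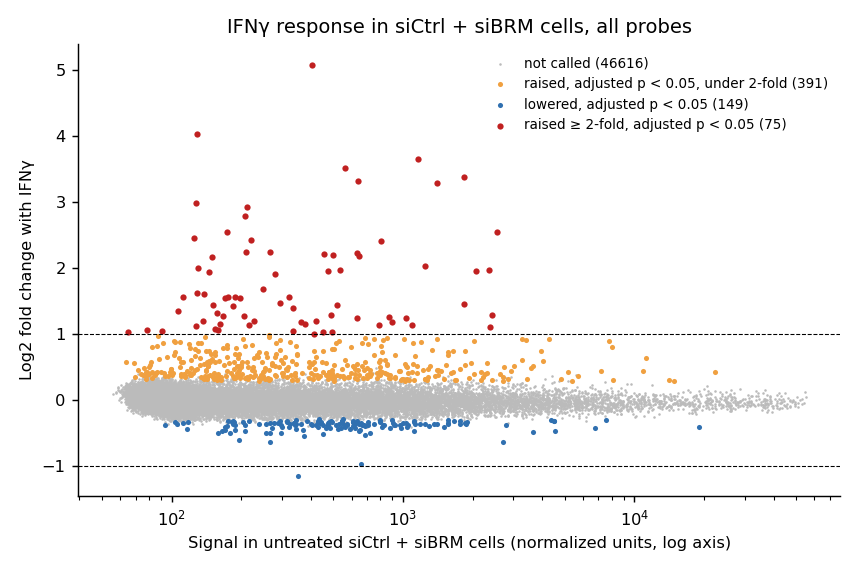
Log2 fold change with IFNγ in siCtrl + siBRM cells (vertical axis) against the mean signal in the untreated arrays (horizontal log axis), 1 point per probe. Dashed lines mark 2-fold. The 75 probes raised ≥ 2-fold spread over dim and bright signals, with 5 of them at 2000 units or more. Of the 149 lowered probes, 1 lies beyond the lower line.

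The largest rise was that of ILMN_1708375. Its normalized signal was 435, 401 and 374 units in the 3 untreated siCtrl + siBRM arrays and 13665, 14155 and 13243 units with IFNγ. The probe was thus well detected before treatment, and no IFNγ array came near an untreated one. The log2 fold change was 5.09 (standard error 0.08), a 34.0-fold rise (adjusted p = 3.49e-32, limma with Benjamini-Hochberg adjustment). The group means were 404 ± 30.7 and 13688 ± 456 units (SD, n = 3).

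In siCtrl + siBRM cells ILMN_2376108 went from background to a clear signal. The untreated siCtrl + siBRM arrays read 124, 135 and 129 units, and none of the 3 detected it. The IFNγ arrays read 2336, 2001 and 2039 units, and all 3 detected it. Its log2 fold change was 4.04 (standard error 0.09), or 16.4-fold (adjusted p = 1.17e-27, limma with Benjamini-Hochberg adjustment). Background was not subtracted, so a fold that starts from an undetected signal is understated. With neqc, which subtracts background, the log2 fold change of ILMN_2376108 was 5.27, and that of ILMN_1708375 was 5.36. The next 8 rises had log2 fold changes between 2.80 and 3.65, and 7 of these probes were detected in all 3 untreated arrays.

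**Figure D2:**
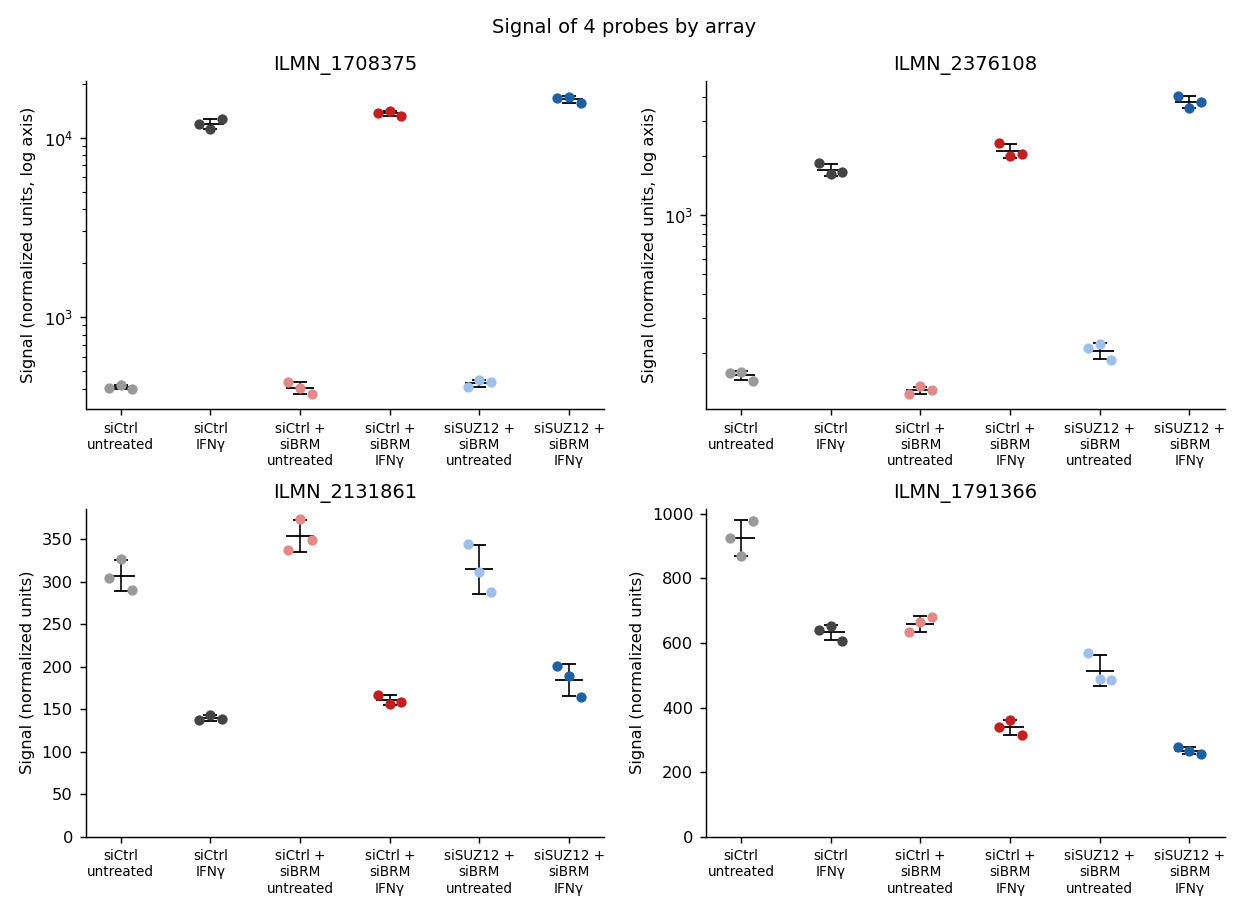
Normalized signal of 4 probes (log axis for the upper pair) in siCtrl, siCtrl + siBRM and siSUZ12 + siBRM cells, untreated and with IFNγ. Points are the 3 arrays of a group, and bars give the mean ± SD; in siCtrl + siBRM cells ILMN_1708375 and ILMN_2376108 rose 34.0-fold and 16.4-fold, and the lower pair of probes fell.

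Most of the 75 probes were already detected before IFNγ. Of the 75 probes, 62 were detected in all 3 untreated siCtrl + siBRM arrays, and 74 in all 3 IFNγ arrays. Among the 14911 probes detected in all 3 arrays of a group, the share raised ≥ 2-fold was 0.496%. The 62 made up 0.431% of the 14383 probes detected in all 3 untreated arrays, and their median signal went from 408 to 1192 units. Another 9 of the 75 were detected in no untreated array, out of 30588 such probes (0.0294%), and 8 of the 9 were detected in all 3 IFNγ arrays. Log2 fold changes of these 9 had a median of 1.36 and ran from 1.03 to 4.04. The remaining 4 probes were detected in 1 or 2 untreated arrays, and their median log2 fold change was 1.61. Without background subtraction, the folds of the undetected probes and of the others are not on an equal footing. This also bears on which probes reached 2-fold. With neqc 130 probes did, and their detection before IFNγ is not given here.

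Sorted by untreated signal, the share of responding probes was highest in the middle range. Of 33390 probes under 150 units, 15 rose ≥ 2-fold (0.0449%). Between 150 and 500 units it was 37 of 7317 (0.506%), and between 500 and 2000 units 18 of 4390 (0.41%). At 2000 units or more, 5 of 2134 probes rose ≥ 2-fold (0.234%), and their median log2 fold change was 1.97. The response therefore included probes of every signal class, and the shares were not tested against each other.

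Values by replicate describe the 75 probes but do not test them, since the probes were picked on these same 6 arrays. Taking untreated and IFNγ arrays of the same number together, the median log2 fold change of the 75 probes was 1.54, 1.53 and 1.56. All 75 changed upwards in each of the 3 comparisons, and 73, 69 and 69 of them reached 2-fold. The lowest single value over probes and replicates was 0.90. At the threshold itself, the lowest members had log2 fold changes of 1.0003 and 1.03, and the highest probes left out had 0.99, 0.98 and 0.97.

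A larger set of probes rose by less than 2-fold. Judged on the adjusted p-value alone (below 0.05, limma), 615 probes changed (1.3%), of which 466 rose (0.987%) and 149 fell (0.315%). With neqc the split was 526 raised and 297 lowered probes. At an unadjusted p-value below 0.05, 4112 probes did (8.71%). The 391 probes raised by less than 2-fold had a median log2 fold change of 0.45, ranging from 0.29 to 0.99, and a median signal that went from 324 to 491 units. Of these 391 probes, 313 were detected in all 3 untreated arrays and 59 in none. Among the raised probes, 186 reached 1.5-fold (0.394%). Leaving out 1 replicate number at a time gave 296 to 310 raised probes. In siSUZ12 + siBRM cells, on other arrays, 289 of the 391 were raised, against 1.44% of all probes.

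Falls were small. The 149 lowered probes had a median log2 fold change of -0.36, and their median signal went from 541 to 407 units. Only 5 of them fell ≥ 1.5-fold, and 143 of the 149 were detected in all 3 untreated arrays. At 148 of the 149 the 3 IFNγ arrays lay below the 3 untreated arrays, against 6.31% of all probes. The 149 were picked on these same arrays, so this comparison describes them and does not test them. The count of 149 varied with the arrays that were included. Without replicate number 1, 2 or 3 it was 55, 23 or 42. Leaving out a single untreated array (replicate 1, 2 or 3) gave 82, 85 or 96 lowered probes. Without IFNγ replicate 2 or 3 it was 81 or 96, and without IFNγ replicate 1 it was 127. A fit of the 6 arrays alone gave 71.

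ILMN_2131861 was the probe that fell ≥ 2-fold. In siCtrl + siBRM cells its signal was 337, 374 and 349 units untreated and 167, 156 and 159 units with IFNγ, so the groups were well apart. It fell by 1.14 on the log2 scale (standard error 0.09; adjusted p = 1.11e-11, limma with Benjamini-Hochberg adjustment). In siCtrl cells it was -1.14 as well, and the difference between the 2 responses had a 95% interval of -0.25 to 0.25. ILMN_1791366 came next, from 633, 664 and 680 units untreated to 340, 362 and 314 units with IFNγ. Here too the groups did not overlap, with a log2 fold change of -0.96 (standard error 0.08; adjusted p = 9.68e-11, limma with Benjamini-Hochberg adjustment). With neqc the log2 fold changes of ILMN_2131861 and ILMN_1791366 were -1.73 and -1.16. The next 3 falls had log2 fold changes of -0.63, -0.63 and -0.61.

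The siCtrl arrays gave a check on other cells, since they share no array with the siCtrl + siBRM arrays. By the same test without a fold threshold, IFNγ raised 280 probes (0.593%) and lowered 60 (0.127%) in siCtrl cells. Of the 280 raised probes, 279 had a positive fold change in siCtrl + siBRM cells, against 52.3% of all probes, and 257, or 91.8%, were raised there, against 0.987% of all probes. Of the 60 lowered probes, 57 had a negative fold change in siCtrl + siBRM cells, against 47.7% of all probes, and 28 were lowered there, against 0.315%. Their median log2 fold change with siBRM was -0.30. Of the 149 probes lowered in siCtrl + siBRM cells, 139 had a negative fold change in siCtrl cells, against 52.6% of all probes. In siSUZ12 + siBRM cells 84 of the 149 were lowered, against 0.915% of all probes.

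The next question was whether depletion of BRM changed the response. Without siBRM, IFNγ raised 58 probes ≥ 2-fold (0.123%), and all 58 were among the 75, which made 100% of the former and 77.3% of the latter. The other 17 probes also passed the adjusted threshold in siCtrl cells, with log2 fold changes of 0.50 to 0.9994. Their median was 0.88 in siCtrl and 1.14 in siCtrl + siBRM cells, and this gap follows in part from how the 17 were picked. No probe of the 75 was thus a response seen with siBRM alone.

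**Figure D3:**
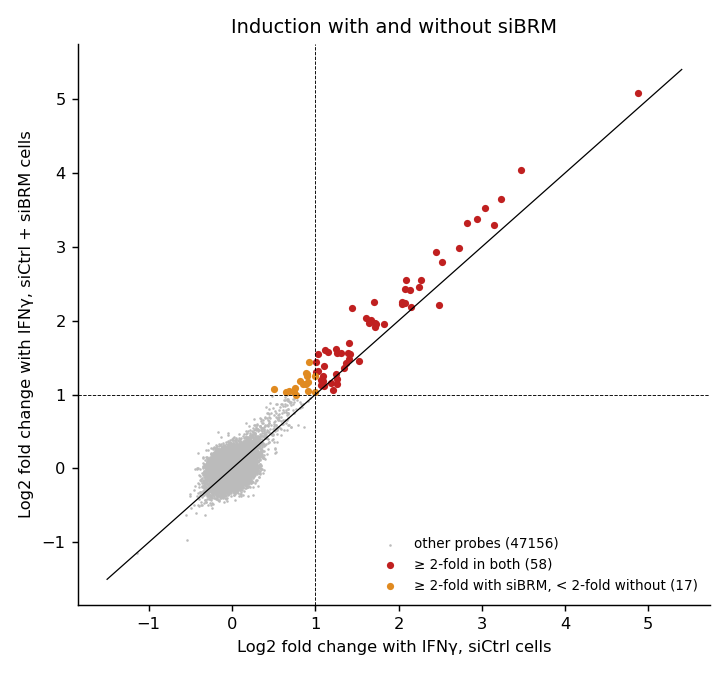
Log2 fold change with IFNγ in siCtrl + siBRM cells (vertical axis) against that in siCtrl cells (horizontal axis), 1 point per probe, with the line of equal induction and dashed lines at 2-fold. The 58 probes induced ≥ 2-fold in both and the other 17 lie close to the line. Of the 58, 52 lie above it, against 53.3% of all probes. All 17 lie above it because of how they were picked.

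For no probe did the difference in induction between siCtrl + siBRM and siCtrl cells pass an adjusted p-value of 0.05 (limma interaction contrast, Benjamini-Hochberg adjustment, 0% of probes). The smallest adjusted p was 0.0591, and within the 75 probes it was 0.172 (limma, interaction term). At an unadjusted p-value below 0.05, 1895 probes passed (4.01%), of which 1191 (2.52%) had a higher and 704 (1.49%) a lower induction with siBRM. That share is below the 0.05 that would pass on average if no probe differed. The count of 0 depended on the setting. With a trend and robust estimation of the spread, 10 probes differed, all with a higher induction in siCtrl + siBRM cells and 9 of them among the 75. With only probes detected in at least 3 arrays it was 4 probes, 3 of them among the 75. The 75 were picked for a high fold change on the siCtrl + siBRM arrays, which enter this difference. Their part in these counts therefore describes them and does not test them.

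The 58 probes picked on the siCtrl arrays leaned towards a higher induction with siBRM. Their median log2 fold change was 1.57 in siCtrl and 1.93 in siCtrl + siBRM cells. The value with siBRM was the higher one at 52 of the 58 probes, or 89.7%, against 53.3% of all probes. The median difference was 0.25 on the log2 scale, against 0.01 for all probes, and single probes ranged from -0.28 to 0.73. At an unadjusted p-value below 0.05, 29 of the 58 had a higher and 1 a lower induction with siBRM, against 2.52% and 1.49% of all probes. For each of the 3 replicate numbers taken alone, the higher value was that with siBRM at 48, 46 and 49 probes.

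By array, the mean log2 signal of these 58 probes differed after IFNγ and little before it. Untreated siCtrl arrays had means of 8.40, 8.42 and 8.34, and untreated siCtrl + siBRM arrays 8.45, 8.44 and 8.43. With IFNγ the means were 10.20, 10.16 and 10.14 in siCtrl and 10.47, 10.43 and 10.47 in siCtrl + siBRM cells. The 3 IFNγ arrays with siBRM were thus all above the 3 without it, with group means of 10.46 ± 0.02 and 10.17 ± 0.03 (SD, n = 3). Medians over the probes kept that order with IFNγ (9.94 to 10.06 with and 9.79 to 9.83 without siBRM). In untreated cells the medians with siBRM were the lower ones (7.97 to 8.03 against 8.05 to 8.17). Over all probes, the same group means were 7.40 and 7.41. With IFNγ, 31 of the 58 probes had a higher and 1 a lower signal with siBRM (adjusted p-value under 0.05, limma), and before IFNγ 10 were higher and 5 lower. Among all probes, 1.41% were higher and 1.72% lower with IFNγ, and 1.51% higher and 1.87% lower before it. Cells with siBRM also received more siRNA in total, and the effects of BRM depletion and of siRNA amount cannot be told apart.

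**Figure D4:**
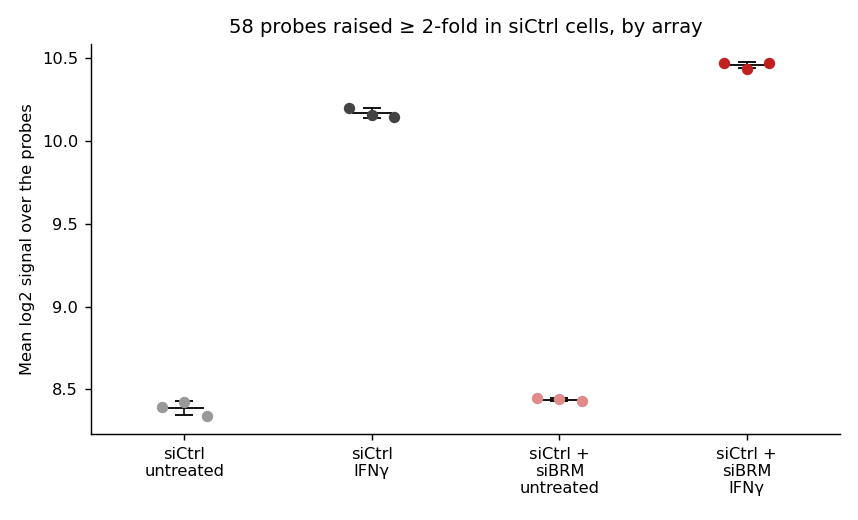
Mean log2 signal of the 58 probes raised ≥ 2-fold in siCtrl cells, 1 point per array, with the mean ± SD of each group; the vertical axis does not start at 0. Untreated arrays lie between 8.34 and 8.45, IFNγ arrays of siCtrl cells between 10.14 and 10.20, and those of siCtrl + siBRM cells between 10.43 and 10.47.

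The size of the differences was limited. The 95% interval of the difference in induction, unadjusted for the number of probes, lay within 2-fold for 74 of the 75 probes and within 1.5-fold for 50. The median standard error of a difference was 0.12 on the log2 scale. Across the 58 probes, log2 fold changes with and without siBRM had a Pearson's r of 0.973 and a Spearman's rho of 0.912, a description over probes of the same arrays. The median ratio of the log2 fold change with siBRM to that without was 1.13.

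The largest difference among the 75 probes was at a probe near background in untreated cells. In siCtrl + siBRM cells it went from 151, 158 and 138 units to 648, 710 and 651, and in siCtrl cells from 129, 158 and 121 units to 369, 401 and 332. The untreated arrays overlapped and the IFNγ arrays did not. Its log2 fold change was 2.17 with and 1.44 without siBRM, a difference of 0.73 (standard error 0.14; adjusted p = 0.172, limma with Benjamini-Hochberg adjustment). For ILMN_2376108 the siCtrl arrays read 157, 159 and 144 units untreated and 1834, 1616 and 1648 with IFNγ. All 3 untreated siCtrl arrays detected it. The log2 difference in level, siCtrl + siBRM minus siCtrl, was -0.25 before IFNγ and 0.32 with it. The log2 difference in induction was 0.57 (95% interval 0.32 to 0.82; adjusted p = 0.485, limma with Benjamini-Hochberg adjustment). For ILMN_1708375 the siCtrl arrays read 405, 420 and 400 units untreated and 11977, 11174 and 12721 with IFNγ. At this strongest responder the difference was 0.22, with a 95% interval of -0.00 to 0.44.

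ILMN_1791366 stood lower with siBRM in both states. Its siCtrl arrays read 925, 868 and 979 units untreated and 640, 652 and 605 with IFNγ. The level with siBRM was lower by a log2 difference of -0.49 before IFNγ (adjusted p = 0.000132) and -0.90 with it (adjusted p = 9.37e-10, both from limma with Benjamini-Hochberg adjustment). The difference in response was -0.42 on the log2 scale (95% interval -0.65 to -0.18), which did not pass the adjusted threshold. The probe with the smallest adjusted p for a difference in response (0.0591, limma) was outside the 75. It read 1470, 1538 and 1514 units in untreated siCtrl and 307, 285 and 280 in untreated siCtrl + siBRM cells. With IFNγ the readings were 1408, 1273 and 1358 without and 415, 432 and 385 with siBRM, so that the level with siBRM was the lower one throughout.

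A further comparison was with siSUZ12 + siBRM cells, which received the same amounts of siRNA and were depleted of both SUZ12 and BRM by design. There, IFNγ raised 140 probes ≥ 2-fold (0.296%; limma with Benjamini-Hochberg adjustment), and 73 of the 75 were among them. The other pair of probes had log2 fold changes of 0.996 and 0.79 there, and both passed the adjusted threshold. The remaining 67 of the 140 probes rose by less than 2-fold in siCtrl + siBRM cells. Their median log2 fold change with siCtrl + siBRM was 0.73. In those cells 54 of the 67 were raised at an adjusted p-value below 0.05 (limma), against 0.987% of all probes.

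The difference in induction between these cells passed an adjusted p-value of 0.05 at 55 probes, or 0.116% (limma interaction contrast, Benjamini-Hochberg adjustment). Induction was higher with siSUZ12 + siBRM at 46 probes (0.0974%) and lower at 9 (0.0191%). Without a replicate number the count of 55 was 28 to 32. Most of the 46 were weak or silent in siCtrl + siBRM cells, where their median log2 fold change was 0.32. There 23 of them were raised, against 0.987% of all probes. Of the 46, 18 were detected by no siCtrl + siBRM array with IFNγ and by all 3 siSUZ12 + siBRM arrays with IFNγ. Among all 47231 probes, 235 had this pattern, and the 46 were picked on these same arrays.

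**Figure D5:**
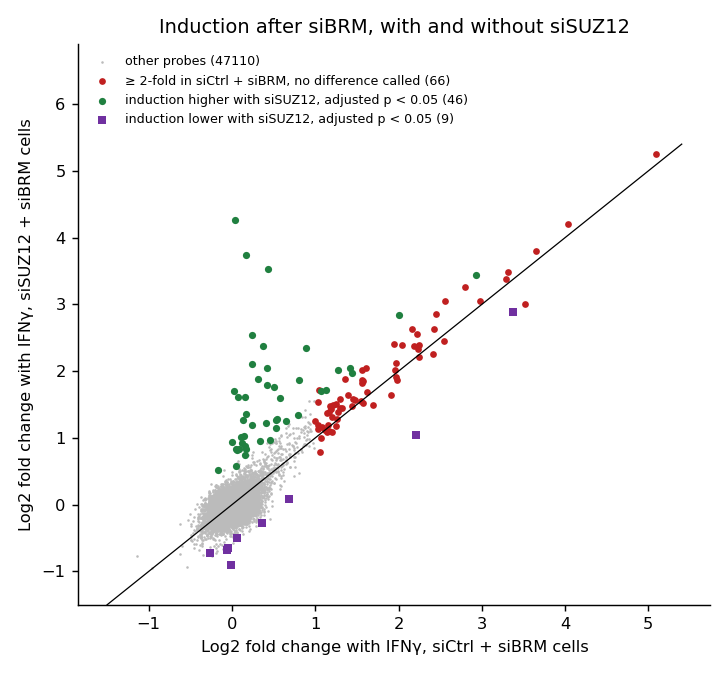
Log2 fold change with IFNγ in siSUZ12 + siBRM cells (vertical axis) against that in siCtrl + siBRM cells (horizontal axis), 1 point per probe, with the line of equal induction. Of the 55 probes whose induction differed, 46 lie above the line, mostly at low values on the horizontal axis, and 9 below it.

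The largest gain was at a probe that IFNγ left at background in siCtrl + siBRM cells. Its signal there was 92.3, 90.0 and 88.4 units untreated and 95.6, 96.7 and 85.1 with IFNγ, and no IFNγ array detected it. In siSUZ12 + siBRM cells it went from 89.4, 96.6 and 97.5 units to 2099, 1792 and 1585. The log2 fold changes were 0.03 and 4.26, a difference of 4.23 (standard error 0.13; adjusted p = 3.55e-22, limma with Benjamini-Hochberg adjustment). A second such probe read 94.1, 80.5 and 91.1 units with IFNγ in siCtrl + siBRM and 1181, 1189 and 1274 in siSUZ12 + siBRM cells. Both were also at background in siCtrl cells, with log2 fold changes of -0.01 and 0.09. In siSUZ12 cells without siBRM both rose with IFNγ, with log2 fold changes of 4.62 and 4.15. Neither passed the adjusted threshold for the IFNγ response in siCtrl + siBRM cells. In siSUZ12 cells without siBRM, where IFNγ raised 130 probes ≥ 2-fold (0.275%), 72 of these probes were not raised ≥ 2-fold in siCtrl cells. Of the 72, 14 rose ≥ 2-fold in siCtrl + siBRM cells, against 0.159% of all probes. On the adjusted p-value alone (below 0.05, limma), 59 of the 72 were raised there, against 0.987% of all probes. The median log2 fold change of the 72 was 0.80. In siCtrl cells 52 of the 72 were raised on the adjusted p-value alone, against 0.593% of all probes, and the median log2 fold change was 0.64. None reached the 2-fold call in siCtrl cells, because the 72 were picked that way.

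Of the 75 probes, 7 had a higher and 2 a lower induction with siSUZ12 + siBRM. The 75 were chosen on the siCtrl + siBRM arrays that enter this difference. Their median log2 fold change was 1.72 in siSUZ12 + siBRM cells, and the median difference was 0.16. The largest gain among them was at a probe that read 128, 138 and 124 units untreated and 491, 506 and 578 with IFNγ in siCtrl + siBRM cells. With siSUZ12 + siBRM it read 152, 145 and 145 untreated and 1025, 1103 and 1043 with IFNγ. The log2 fold change went from 2.01 to 2.84, a difference of 0.83 (standard error 0.11; adjusted p = 4.92e-05, limma with Benjamini-Hochberg adjustment).

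The larger of the 2 losses was at a probe whose untreated signal was higher with siSUZ12. In siCtrl + siBRM cells it went from 491, 506 and 496 units to 2200, 2218 and 2481 with IFNγ. In siSUZ12 + siBRM cells it started at 1214, 1127 and 1156 units and reached 2447, 2397 and 2360. The IFNγ levels were thus close in both, while the untreated levels differed by 1.23 on the log2 scale. The log2 fold change was 2.21 against 1.04, a difference of -1.16 (standard error 0.11; adjusted p = 5.92e-09, limma with Benjamini-Hochberg adjustment). For ILMN_1708375 and ILMN_2376108 the differences were 0.16 each, with 95% intervals of -0.06 to 0.38 and -0.09 to 0.41.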

How the data were processed

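Total RNA of SW-13 cells was extracted with Trizol, and biotin-labelled cRNA was hybridized to Illumina Human-HT-12 BeadChips, with 3 biological replicates per group as the study states. The authors deposited 1 table of signal intensity without normalization for 47231 probes on 24 arrays. They also deposited a detection p-value for each intensity. The submitters' processing notes name BeadStudio, for which the methods state average normalization. The number of arrays limits the precision, and no counts underlie the signals.

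Columns were assigned to samples by their names, and 0 columns of per-sample values were left unused. Signals were multiplied so that every array had the mean of all array means, and log2 was taken, with no background subtraction. One model of group means was fitted over the 24 arrays in limma 3.58.1 (R 4.3.3), with 16 residual degrees of freedom. P-values were adjusted by Benjamini-Hochberg over all 47231 probes, and 2-fold calls required a log2 change of 1 or more in either direction and an adjusted p-value under 0.05. Differences in induction were interaction contrasts of the same fit, and intervals of 95% are unadjusted. Detection was read at a detection p-value below 0.01. The fit was tested on simulated data. Permuting 3 arrays against 3 was not used. Plots were made in Python 3.11.15 with matplotlib 3.10.9.

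The arrays, lists and comparisons were chosen with earlier results of these data known. By rule, with no gene names at hand, the 2 largest rises and the 2 largest falls whose groups did not overlap were named by probe ID. Other probes were chosen for description after their values were seen. Gene lists, BRM itself, cell type markers, promoter motifs and the averaging of probes per gene need gene names and were not analysed here. The alternatives were quantile, neqc and median scaling, no scaling, a floor of 64, a detection filter, fits of only the groups compared, trend and robust settings, a replicate block, other thresholds, and leaving out replicates.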

Additional observations from a re-analysis of the deposited data

Results flagged for a closer look

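The IFNγ response of siCtrl + siBRM cells differed from that of siSUZ12 + siBRM cells at 55 probes by the interaction term (limma with Benjamini-Hochberg adjustment), 46 of them with a higher and 9 with a lower induction in siSUZ12 + siBRM cells.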

How the results depend on the processing

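The 75 probes raised ≥ 2-fold became 130 with neqc, which subtracts background, 466 on the adjusted p-value alone and 186 at 1.5-fold. The single lowered probe became 6 with neqc, 2 without scaling, 149 on the adjusted p-value alone and 5 at 1.5-fold, and 1 to 2 when replicates were left out. The other alternatives for the 75 gave between 69 and 79. The alternatives for the counts at any fold were added after seeing the data. For them, the 466 raised probes became 260 without scaling and 701 with the detection filter, and 296 to 436 without a replicate. The 149 lowered probes became 297 with neqc, 92 without scaling, 436 with the detection filter, 71 with only the groups compared, 311 with trend and robust settings, and 23 to 127 without a replicate. Raised probes were 75.8% of those changed, and this share ranged from 61.7% with the detection filter and 63.9% with neqc to 83.7% with only the groups compared and 93.1% without replicate number 2. The cause of these shifts was not tested.

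The 0 probes whose induction differed from siCtrl cells became 1 with quantile normalization, 1 with median scaling, 4 with the detection filter, 10 with trend and robust settings, and 0 to 1 without a replicate. The median difference of the 58 probes, whose alternatives were also added later, stayed between 0.21 and 0.29 in all 24 alternatives. The 55 probes that differed from siSUZ12 + siBRM cells became 36 without scaling, 91 with the detection filter, 95 with trend and robust settings, 19 with a 2-fold difference required, and 28 to 50 without a replicate. All 18 alternatives run for each of the 4 named probes gave the same direction and passed the test, with the largest values under neqc. Averaging the probes of a gene was not run.

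The main fit did not pair arrays by replicate number, and whether the numbers mark pairs was not tested. The deviations of untreated and IFNγ arrays of the same number in siCtrl + siBRM cells correlated at 0.17, -0.02 and 0.15. With a replicate block, the probes that differed from siCtrl cells numbered 1 in place of 0, and 511 probes were raised and 166 lowered at any fold.

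Signals near background limit the folds of dim probes, and 3 arrays per group limit small differences.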
